A study of Homo sapiens with 66 samples.

Results

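The clustered protocadherins are 53 of the 60603 genes in the deposited count tables, namely every protein-coding gene whose symbol begins with PCDHA, PCDHB or PCDHG and ends in a number. They lie side by side on the plus strand of chromosome 5 (hg38, chr5:140786136-141512977), with 15 genes in the alpha cluster, 16 in the beta cluster and 22 in the gamma cluster. Bulk mRNA was sequenced from H9 human embryonic stem cells, an established cell line, at 22 steps of a culture protocol with 3 libraries at each step. The groups were undifferentiated cells (hESC), cells on days 1 to 4 of conversion to neuromesodermal progenitors (hNMP), days 1 to 6 of neural determination (NeuDet), spinal cord neural progenitors (hSCNPC) at passages 5, 10, 20, 30 and 40, and cells on days 6, 12, 18, 24, 30 and 42 of motor neuron differentiation (hMN). All were labelled wild type and given the treatment label of neural differentiation, which the hESC libraries share. By the methods of the study, the hESC and the first day of the hNMP stage were kept in mTeSR1. The hNMP medium that followed held FGF-2, CHIR99021, SB431542 and Dorsomorphin. The NeuDet medium held those agents with FGF-8 and Compound E. Passaged hSCNPCs were given SB431542, CHIR99021 and Purmorphamine. The hMN medium held Purmorphamine, Compound E, BDNF, GDNF and NT-3.

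Library totals ran from 14142238 to 40204753 counts (median 20676228). Whether replicate libraries stem from different cultures is not stated in the labels. The p-values therefore measure the spread between these libraries, which may be technical. The hMN libraries are in a table of their own. No library is labelled as day 0 of motor neuron differentiation, and hSCNPC-P10 stands in for the starting cells. The cell state and the table cannot be told apart in that comparison. The same holds wherever levels, sums or shares of hMN groups are set beside those of earlier groups. The labelled cell types were checked against marker genes. POU5F1 and NANOG were at 152 ± 22.9 and 108 ± 3.25 CPM in hESC (counts per 1000000 counts of the library, scaled by edgeR's trimmed mean of M-values (TMM), mean ± SD, n = 3 as throughout). NKX1-2 was at 179.8 ± 53.1 CPM and TBXT at only 4.27 ± 1.67 CPM in hNMP-D4, and PAX6 at 494 ± 30.05 CPM in hSCNPC-P5. In NeuDet-D6 PAX6 and SOX1, genes of neural progenitors, were at 0.159 ± 0.0661 and 3.67 ± 0.467 CPM while CDX2 was at 527 ± 13.2 CPM. The 4 listed epithelial genes summed to 299.9 to 359.6 CPM there against 0.304 to 0.975 CPM in hSCNPC-P20. In hMN-D30 the neuronal gene DCX was at 2456 ± 65.6 CPM and the cholinergic transporter genes SLC18A3 and SLC5A7 were at 36.4 ± 2.12 and 42.9 ± 1.22 CPM, with CHAT at 3.45 ± 0.445 CPM. The libraries are of bulk cultures, in which fewer cells of a type and less RNA per cell cannot be told apart.

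Clustered protocadherins are cell-surface adhesion molecules of the cadherin superfamily, best known from the nervous system. Different neurons use different combinations of them as a molecular identity, which lets a neuron tell its own branches from those of its neighbours. Each alpha and gamma gene has its own promoter and its own large first exon, which encodes the extracellular part of the protein. This exon is spliced to short constant exons that all genes of the cluster share. The beta genes have no constant exons. The last genes of the alpha cluster (PCDHAC1, PCDHAC2) and of the gamma cluster (PCDHGC3, PCDHGC4, PCDHGC5) are called C-type and are known to be regulated differently. Of the others a neuron is thought to choose a few by chance, with the help of CTCF and cohesin.

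Shared exons set what the counts can tell. In GENCODE release 44, all 15 alpha genes hold the same 3 exons of 59, 89 and 2721 bases, and all 22 gamma genes the same 3 exons of 59, 89 and 2029 bases. How reads on such bases were assigned is not given in the sources used here. PCDHA1, which has only 7 exon bases that no other gene shares, had 9 counts over all 66 libraries, so bases shared by the alpha genes added at most 9 counts to it. Its level cannot be read. PCDHB1 had 307 counts in 46 of the libraries. The other members had from 2011 to 10557 exclusive exon bases, and where the levels of different genes are compared they are given per kilobase of these. PCDHGB4 and PCDHGA8 each share 4443 exon bases with other members, of 6902 in PCDHGB4, whereas PCDHGC3 shares 2177. The level of PCDHGB4 per kilobase and its share of the gamma level rest on 2459 bases. Both are too high if reads on its bases shared beyond the constant exons were counted. Among the members on which the results turn are PCDHA2 (ENSG00000204969.7, chr5:140794852-141012347), PCDHB5 (ENSG00000113209.8, chr5:141135206-141138615), PCDHGB4 (ENSG00000253953.2, chr5:141387698-141512975) and PCDHGC3 (ENSG00000240184.7, chr5:141475947-141512977). The spans of the alpha and gamma genes run from their own first exon to the shared last one. Exons of PCDHB2 are overlapped over 1797 bases by the antisense gene PCDHB1-AS1, which had 99 counts in all, and antisense reads cannot be told apart where counting did not use strand. The level of PCDHB2 per kilobase rests on the 2301 bases left, of 4098. It and the share of PCDHB2 are too high if reads on the overlapped bases were counted.

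Promoter sequences were given for 47 of the 53 members (RefSeq, GRCh38.p14, 250 bases before to 50 after the start). The letters CGCT, the core of the element that members are known to share, occur on the gene's strand between 100 and 20 bases before the start in 43 of these 47, against 23.8% of all 35116 promoters. Anywhere on either strand they occur in 46 of 47 and in 70.01% of all promoters. The bases around CGCT differ by cluster, as the following stretches of 30 bases show, each 5′ to 3′ on the plus strand with CGCT in capitals. They belong to some of the members on which the results below turn. Where a promoter held several copies, the one most like those of the other members of its cluster is shown, which favours likeness within a cluster. On average PCDHAC2 and PCDHGC4 matched the others of their clusters in only 14.18 and 15.95 of the 30 bases, and PCDHGB7, not printed, in 11.26. The medians were 19.5 for alpha and 20.5 for gamma members.
PCDHA2: cttttagccacatgatgtCGCTgtccacca
PCDHA4: tttggagccacatgatgtCGCTctttacca
PCDHA6: tttggagccgcatgatgtCGCTgtctacca
PCDHA11: gttttaggcgcaaggtgtCGCTctttactt
PCDHAC2: ggctgagcagtccgggttCGCTgtccgcca
PCDHB2: ggaagagacgcggggtggCGCTgcagcctt
PCDHB5: aattaggacgcctggtggCGCTgcaggcta
PCDHB16: agtgagaacgcgtggtggCGCTgcaggtta
PCDHGA3: ggttaggcctcttagtgtCGCTgttgacca
PCDHGA11: agaatgggctctaggcgcCGCTgctcacca
PCDHGB4: agtgctgactctgggcgcCGCTgttggcca
PCDHGB5: agtgctgactctgggcgcCGCTgttggcca
PCDHGC3: ggctgggactctgtgtgcCGCTgtcggcca
PCDHGC4: ttggctgagcccgggagcCGCTgtctgcca
The longer word GGTGGCGCT, searched on the gene's strand, was found in 13 of the 14 beta promoters and in no alpha or gamma promoter, against 0.302% of all promoters. It was chosen as a word that promoters of members share, so its frequency among them follows from the choice and is no test. For PCDHGB4 (chr5:141387615-141387644) and PCDHGB5 (chr5:141397861-141397890) all 30 bases are the same. Each of these promoters held 6 copies of CGCT on the gene's strand, so the choice of copy favours this likeness. The levels of PCDHGB4 and PCDHGB5 moved in opposite directions from passage 20 to passage 30. Whether the stretch has a part in these levels was not tested, and the pair was picked after its values were seen. The other stretches lie at chr5:140806977-140807006, chr5:140827895-140827924, chr5:140868881-140868910, chr5:140966363-140966392, chr5:141094542-141094571, chr5:141182308-141182337, chr5:141343765-141343794, chr5:141420970-141420999, chr5:141475878-141475907 and chr5:141484950-141484979, in the order printed. CGCT lies 65 bases before the start of PCDHGB4, 55 before that of PCDHA2 (chr5:140794779-140794808) and 11 before that of PCDHB5 (chr5:141135177-141135206), the beta member with the highest level per kilobase. A match is a description of letters and not evidence that a factor binds there.

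Summed over its members, each cluster had its highest group mean at the motor neuron stage, the beta sum in hMN-D6, the gamma sum in hMN-D12 and the alpha sum in hMN-D24. The alpha sum was 139.9 ± 11.4 CPM in hESC, 189 ± 9.23 CPM in hNMP-D3, 59.7 ± 6.13 CPM in hSCNPC-P5, 52.8 ± 2.05 CPM in hSCNPC-P30 and 212 ± 5.38 CPM in hMN-D24. In hSCNPC-P5 its libraries had 52.7, 64.3 and 62.0 CPM, all below the 103, 97.8 and 129 CPM of NeuDet-D6. The gamma sum went from 91.4 ± 3.12 CPM in hNMP-D3 to 277 ± 18.5 CPM in NeuDet-D2, came back to 145 ± 19.8 CPM in NeuDet-D6 and reached 335 ± 12.5 CPM in hMN-D12. Before the motor neuron stage the beta sum lay between 122 ± 1.93 CPM in hNMP-D3 and 208 ± 5.84 CPM in NeuDet-D4, and was 332 ± 3.89 CPM in hMN-D6. All 53 members together held 331 ± 8.23 CPM in hSCNPC-P30, the lowest group mean, and 844 ± 28.0 CPM in hMN-D12, the highest.

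**Figure D1:**
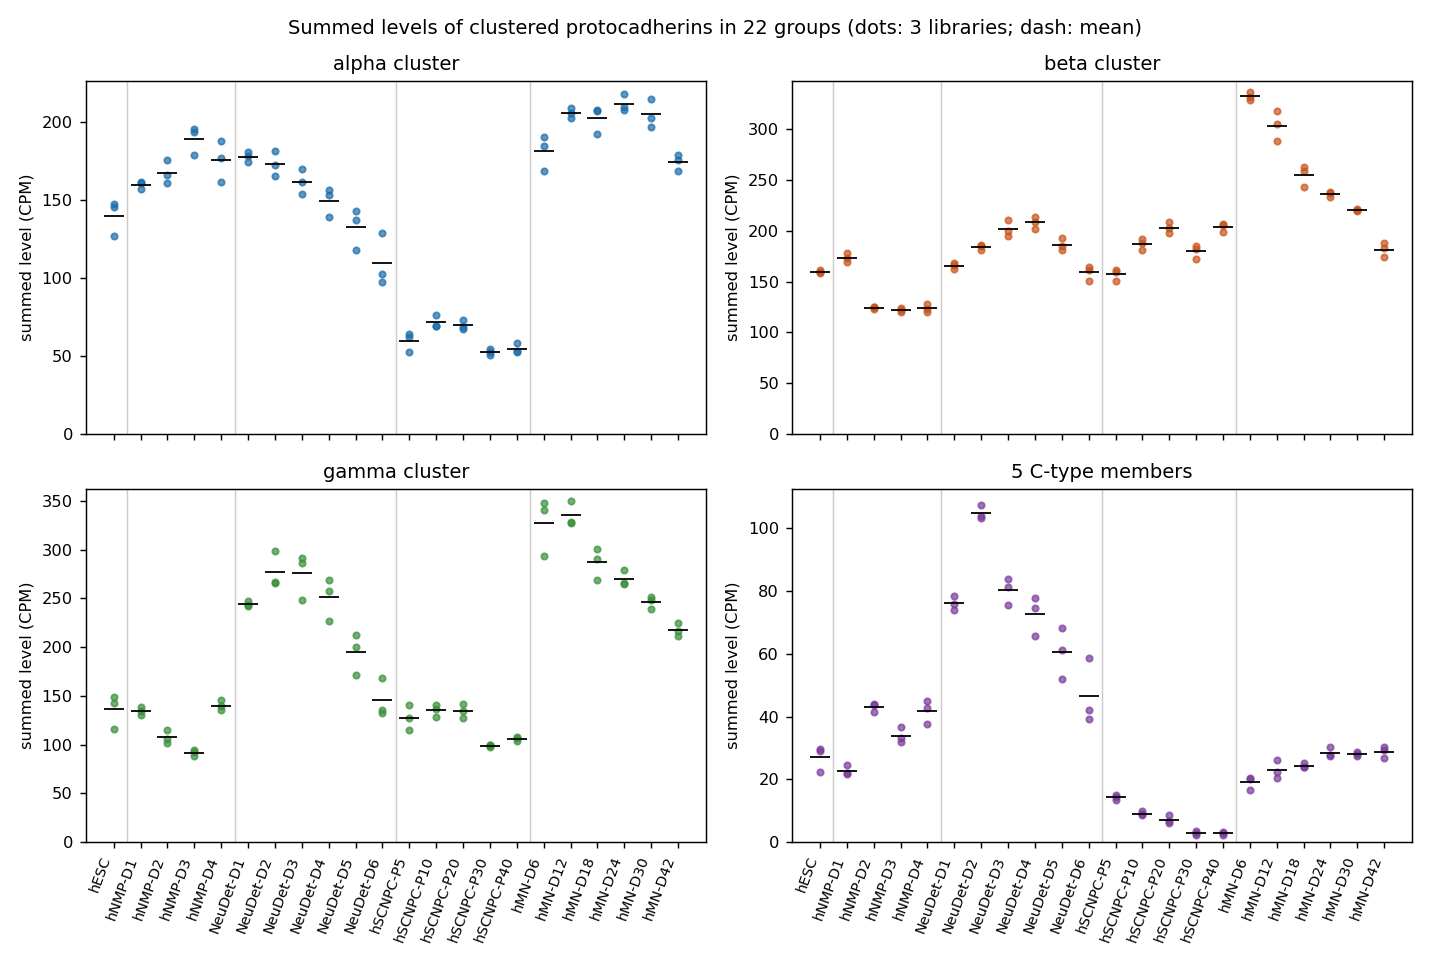
Summed CPM (vertical axes, from 0) of the alpha, beta and gamma clusters and of the 5 C-type members in the 22 groups along the protocol (horizontal axes), with a dot for each of 3 libraries and a dash at their mean. The alpha sum is lowest in the passaged hSCNPCs, the gamma and C-type sums peak in NeuDet-D2 before the motor neuron stage, and the beta sum is highest in hMN-D6.

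The 5 C-type members summed to 27.0 ± 4.002 CPM in hESC, 105 ± 2.16 CPM in NeuDet-D2, 2.74 ± 0.455 CPM in hSCNPC-P40 and 28.8 ± 1.79 CPM in hMN-D42. PCDHGC3, PCDHGC4 and PCDHGC5 were highest in NeuDet-D2, at 59.1, 25.0 and 3.02 CPM, while PCDHAC1 and PCDHAC2 were highest in hNMP-D2. PCDHGA10 and PCDHGA11, which are not C-type, also had their highest group mean in NeuDet and their lowest in hSCNPC-P40. Of the 52 members tested, which leave out PCDHA1, 21 had their highest group mean at the hMN stage, 13 at the hNMP stage, 12 in NeuDet, 4 in hESC and 2 in hSCNPCs. Their lowest group mean fell in hSCNPCs for 32. By cluster, 8 of 14 alpha members peaked at the hNMP stage, 11 of 16 beta members at the hMN stage, and 9 of 22 gamma members in NeuDet. The stages hold unequal numbers of groups, and the same counts were not made over all genes. These counts are therefore a description and do not set the members apart from other genes.

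**Figure D2:**
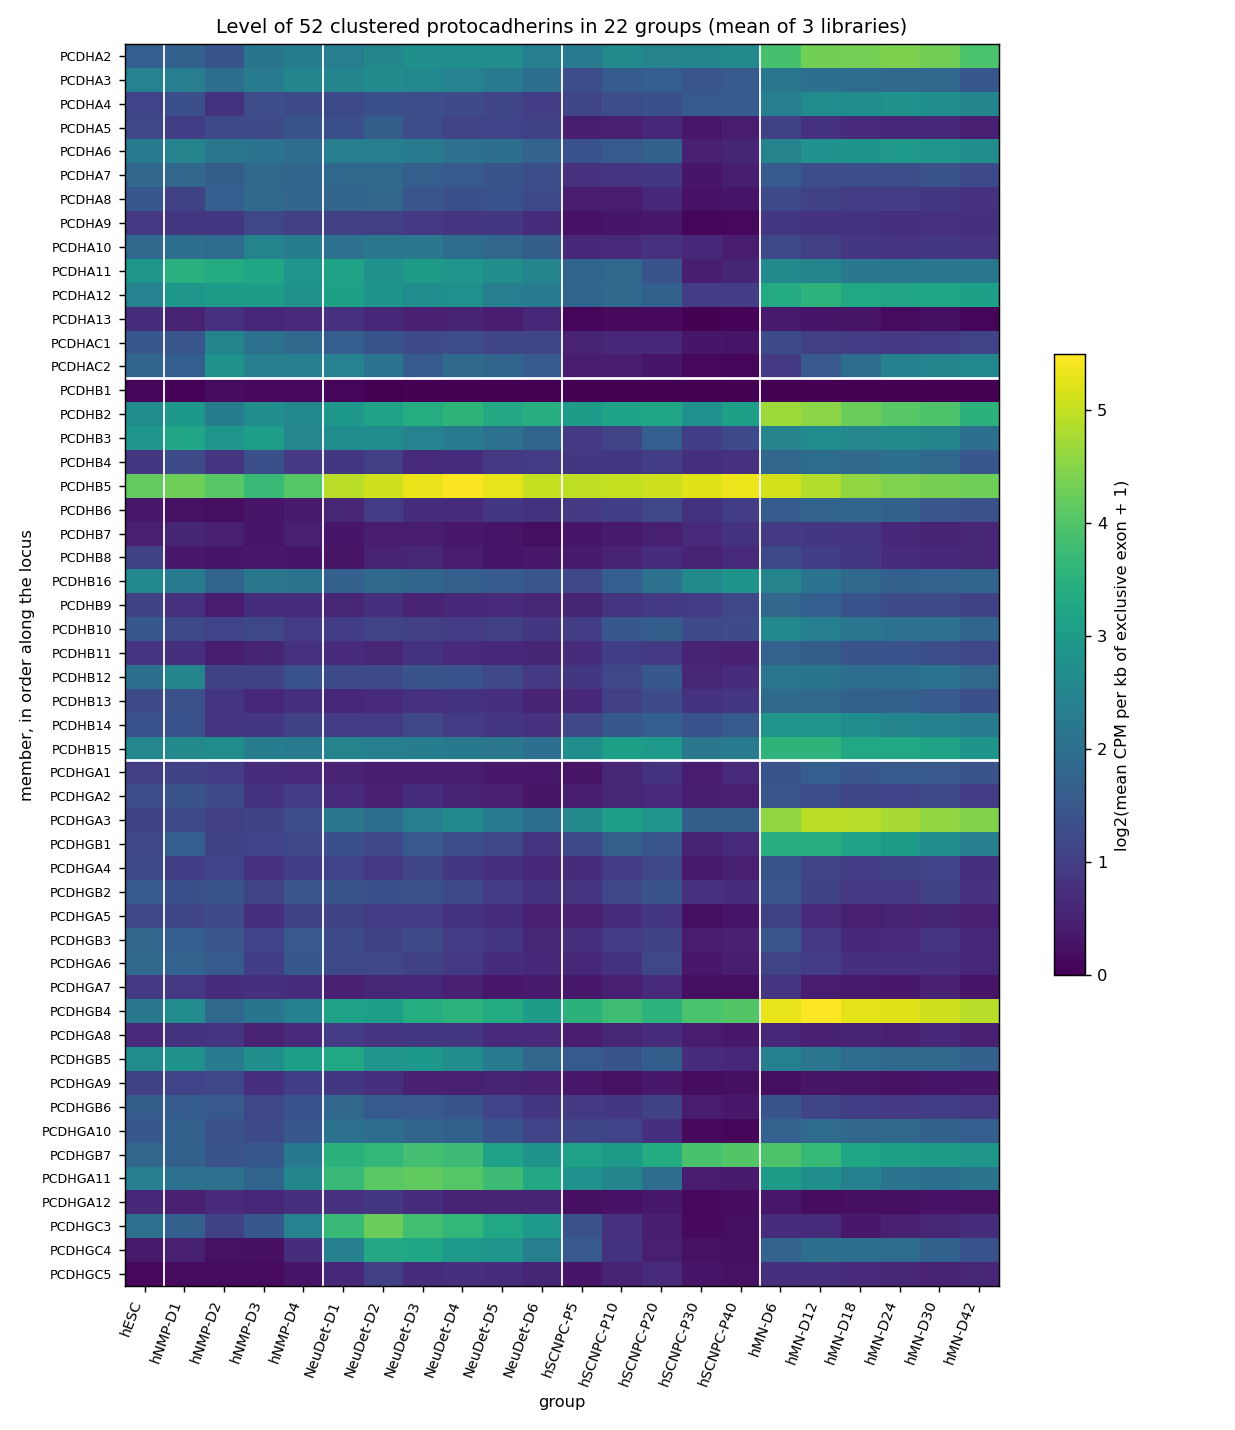
Mean level of 52 members (rows, in order along the locus, PCDHA1 left out) in 22 groups (columns), as log2 of the mean CPM per kilobase of exclusive exon plus 1, with white lines between stages and clusters. PCDHB5 is bright in every group, PCDHGC3 and PCDHGA11 are bright in NeuDet, and PCDHGB4, PCDHGA3, PCDHA2 and PCDHB2 are bright in hMN.

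From hESC to hNMP-D4, the question being what the first conversion does to the locus, the C-type genes rose and 9 of 16 beta genes fell. Of 52 members tested, 13 (25.0%) were higher in hNMP-D4, where 26.7% of all 21597 genes tested were called higher (edgeR's quasi-likelihood test, Benjamini-Hochberg adjusted p below 0.05). Another 14 (26.9%) were lower, where 27.6% of all genes were. Both shares were near those of all genes, and the median log2 fold change of the members was -0.01 against 0.006 over all genes. In the alpha cluster 7 members were higher and 1 lower, in the beta cluster none was higher and 9 lower, and in the gamma cluster 6 were higher and 4 lower. The alpha gene lower was PCDHA6, and the gamma genes lower were PCDHGA1, PCDHGA2, PCDHGA6 and PCDHGB6. By edgeR, the call of PCDHA6 was lost without hESC replicate 2 or 3 or hNMP-D4 replicate 3 (adjusted p from 0.0601 to 0.0799), that of PCDHGA2 without hESC replicate 3 or hNMP-D4 replicate 2 (adjusted p from 0.0599 to 0.117) and that of PCDHGB6 without hESC replicate 2 or 3 or hNMP-D4 replicate 2 (adjusted p from 0.0688 to 0.0898). All 5 C-type members were among those higher. PCDHAC2, the last alpha gene, had 5.83, 9.48 and 8.75 CPM in hESC and 16.2, 14.4 and 11.1 CPM in hNMP-D4, with no overlap (edgeR, log2 fold change 0.79, SE 0.159, adjusted p = 3.05e-05). At the hNMP stage it stood at 19.6 ± 0.904 CPM in hNMP-D2, its highest level of all groups, as did PCDHAC1 at 19.0 ± 0.0911 CPM. PCDHA2 had 5.23, 5.56 and 5.94 CPM in hESC and 9.60, 11.2 and 11.1 CPM in hNMP-D4 and rose 1.92-fold (edgeR, log2 fold change 0.94, SE 0.132, adjusted p = 2.38e-08). PCDHGC5 and PCDHGC4, both at low levels in these groups, had edgeR log2 fold changes of 1.43 (SE 0.464, adjusted p = 0.00777) and 0.98 (SE 0.319, adjusted p = 0.00829). The call of PCDHGC5 was lost without hNMP-D4 replicate 2 (log2 fold change 1.15, adjusted p = 0.0588). Among beta genes, which are adhesion molecules without the constant exons, PCDHB8 fell most, from 2.81, 1.96 and 3.44 CPM to 0.682, 0.583 and 0.756 CPM (edgeR, log2 fold change -1.99, SE 0.297, adjusted p = 8.76e-08). PCDHB13 fell by 1.01 on the log2 scale (SE 0.168) and PCDHB10 by 0.99 (SE 0.156).

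In the next step, from hNMP-D4 into NeuDet, 10 of the 22 gamma genes rose within a day. On NeuDet-D1, a comparison added after the levels had been seen, 15 of 52 members were higher than in hNMP-D4 (28.8%, with 25.4% of all genes higher) and 7 were lower (13.5%, with 30.5% of all genes lower). Of those higher, 10 were gamma genes (PCDHGA3, PCDHGB4, PCDHGA8, PCDHGB6, PCDHGA10, PCDHGB7, PCDHGA11, PCDHGC3, PCDHGC4 and PCDHGC5), 2 alpha and 3 beta genes, and the median log2 fold change was 0.00, beside -0.047 over all genes. The beta genes higher were PCDHB2, PCDHB5 and PCDHB15, and the alpha genes higher were PCDHA6 and PCDHA12. By edgeR, the call of PCDHA12 was lost without NeuDet-D1 replicate 2 or 3 or hNMP-D4 replicate 1 or 2 (adjusted p from 0.0717 to 0.159). PCDHGC4, a C-type gene known to be needed for the survival of neurons in mice, had 2.26, 2.01 and 1.18 CPM in hNMP-D4, 11.1, 12.1 and 12.01 CPM in NeuDet-D1 and 24.3, 27.0 and 23.8 CPM in NeuDet-D2, and the libraries of these 3 groups did not overlap (edgeR, D1 against hNMP-D4, log2 fold change 2.69, SE 0.210, adjusted p = 2.68e-15). Its neighbour PCDHGC3, also C-type, went from 13.8, 15.0 and 14.4 CPM to 38.03, 41.7 and 39.2 CPM on day 1 (edgeR, log2 fold change 1.43, SE 0.101, adjusted p = 9.20e-18) and to 57.3, 61.1 and 59.0 CPM on day 2. There PCDHGC3 held 20.8% ± 0.837 of the gamma level per kilobase, the largest share of the 22 genes. PCDHGB7 and PCDHGA11, neighbours near the C-type genes, rose by 1.51 (SE 0.105) and 1.32 (SE 0.102) on the log2 scale. PCDHGA3, near the start of the cluster, went from 4.09, 4.56 and 3.19 CPM to 9.31, 8.57 and 10.7 CPM (edgeR, log2 fold change 1.25, SE 0.142, adjusted p = 8.22e-11), while PCDHGA12, which lies beside PCDHGC3, was not called (edgeR, log2 fold change 0.03, SE 0.253, adjusted p = 0.924). PCDHGA11 had 20.2, 17.1 and 14.4 CPM in hNMP-D4 and its highest level in NeuDet-D3, with 64.8, 61.5 and 55.4 CPM. PCDHGA2, PCDHGA7 and PCDHB16 fell most on day 1, with log2 fold changes of -0.78 (SE 0.180, adjusted p = 2.29e-04), -0.68 (SE 0.218, adjusted p = 0.00646) and -0.62 (SE 0.117, adjusted p = 9.92e-06) from edgeR. In the beta cluster, PCDHB5 went from 46.5, 46.0 and 43.1 CPM to 86.7, 88.4 and 81.2 CPM (edgeR, log2 fold change 0.89, SE 0.0585, adjusted p = 5.36e-19) and on to 125 ± 4.36 CPM in NeuDet-D4.

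By NeuDet-D6 more members were below hNMP-D4 than above it. Lower were 35 of 52 (67.3%), against 34.8% of all genes, and higher were 10 (19.2%), against 30.3% (edgeR). The median log2 fold change was -0.73, beside -0.045 over all genes. Of the 14 alpha genes tested 12 fell and none rose, while the gamma cluster split into 7 higher and 14 lower and the beta cluster into 3 and 9. The 3 beta genes that rose were PCDHB2, PCDHB5 and PCDHB6. PCDHB2 had 10.7, 12.1 and 11.2 CPM in hNMP-D4 and 25.7, 22.7 and 20.7 CPM in NeuDet-D6 (edgeR, log2 fold change 0.97, SE 0.0969, adjusted p = 6.38e-13). PCDHB6 rose from 1.01 ± 0.651 CPM to 2.36 ± 0.0534 CPM (edgeR, log2 fold change 1.14, SE 0.274, adjusted p = 2.85e-04). PCDHGC4 stayed above hNMP-D4 (edgeR, log2 fold change 2.63, SE 0.211, adjusted p = 2.51e-15). PCDHGC5 was higher at a low level, with 1.40 ± 0.448 CPM (edgeR, log2 fold change 0.98, SE 0.316, adjusted p = 0.00567). The largest falls were those of PCDHB1, from 0.945, 0.794 and 0.798 CPM to 0.0279, 0.131 and 0.0390 CPM (edgeR, log2 fold change -3.55, SE 0.631, adjusted p = 3.08e-06), of PCDHGA2 (edgeR, log2 fold change -2.32, SE 0.205, adjusted p = 1.12e-14) and of PCDHGB3 (edgeR, log2 fold change -1.98, SE 0.221, adjusted p = 2.50e-11). Evenness fell in the beta and gamma clusters. Expressed as an effective number, the exponential of the Shannon entropy of the members' shares per kilobase, which equals the number of genes when all are level, the gamma cluster went from 15.9 ± 0.347 of 22 in hNMP-D4 to 11.6 ± 0.545 in NeuDet-D6. The beta cluster went from 7.73 ± 0.387 of 16 to 4.61 ± 0.242, with PCDHB5 alone at 57.2% ± 1.39 of it, and the alpha cluster was at 11.9 ± 0.376 and 11.7 ± 0.128 of 14 genes measured.

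**Figure D3:**
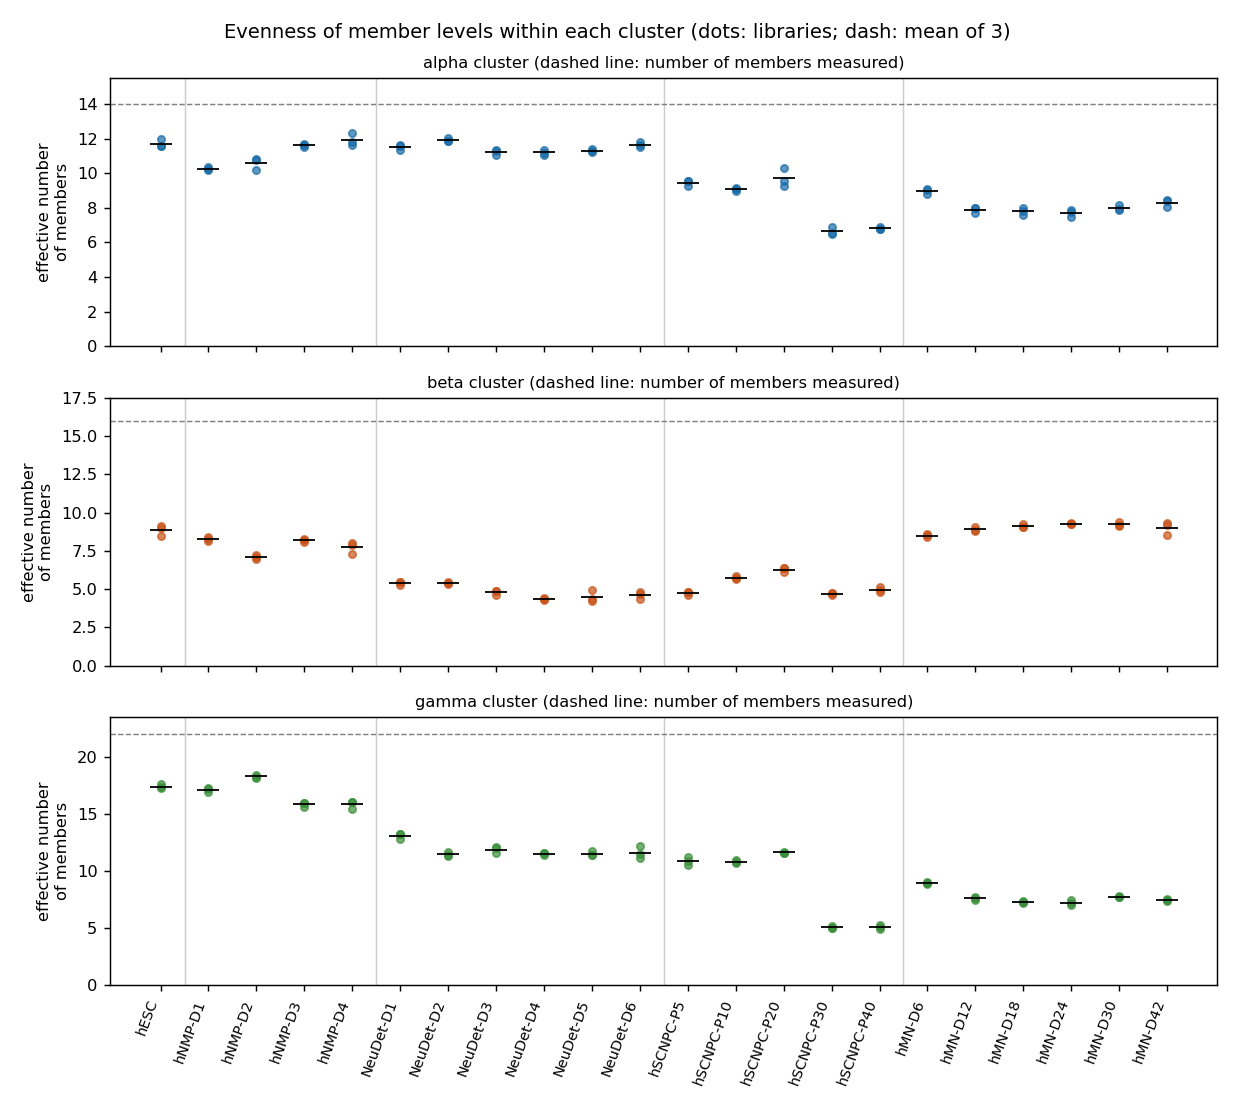
Effective number of members (vertical axes) in each cluster over the 22 groups (horizontal axis), computed from levels per kilobase, with a dot for each of 3 libraries, a dash at their mean and a dashed line at the number of genes measured. In the gamma cluster the libraries of hSCNPC-P30 and hSCNPC-P40 lie near 5, below those of every other group.

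At the start of passaging most alpha genes and all C-type genes fell. In hSCNPC-P5, 22 of 52 members were lower than in NeuDet-D6 (42.3%, against 30.6% of all genes) and 9 were higher (17.3%, against 28.8%). Of the 14 alpha genes tested 12 were lower and 1, PCDHA4, was higher (edgeR, log2 fold change 0.32, SE 0.0952, adjusted p = 0.00276). The median log2 fold change was -1.22 for alpha, 0.07 for beta and 0.02 for gamma genes, against -0.024 over all genes tested. PCDHA12 had 6.16, 7.57 and 9.21 CPM in NeuDet-D6 and 4.79, 4.72 and 5.01 CPM in hSCNPC-P5 (edgeR, log2 fold change -0.64, SE 0.154, adjusted p = 3.33e-04). Beta genes split evenly, with PCDHB7, PCDHB14 and PCDHB15 higher and PCDHB2, PCDHB3 and PCDHB16 lower, and the gamma genes higher were PCDHGA2, PCDHGA3, PCDHGB1, PCDHGB4 and PCDHGB7. By edgeR, the call of PCDHB7 was lost without NeuDet-D6 replicate 1 or 2 or hSCNPC-P5 replicate 1 (adjusted p from 0.0930 to 0.401) and that of PCDHB16 without hSCNPC-P5 replicate 3 (adjusted p = 0.0534). All 5 C-type genes fell. PCDHGC3 went from 21.1, 19.3 and 26.2 CPM to 4.97, 5.75 and 4.69 CPM (edgeR, log2 fold change -2.09, SE 0.119, adjusted p = 5.94e-22). PCDHAC2 went from 5.07, 5.66 and 8.35 CPM to 0.828, 1.21 and 1.53 CPM (edgeR, log2 fold change -2.37, SE 0.218, adjusted p = 6.78e-14), and neither pair of groups overlapped. The call of PCDHGC5 (edgeR, log2 fold change -0.82, SE 0.317, adjusted p = 0.0223) was lost without NeuDet-D6 replicate 3, hSCNPC-P5 replicate 1 or hSCNPC-P5 replicate 2, with adjusted p of 0.137, 0.0582 and 0.124. PCDHA13, a gene of few counts, had the largest fitted fall among called members, from 1.06 ± 0.179 CPM to 0.132 ± 0.0884 CPM (edgeR, log2 fold change -2.94, SE 0.453, adjusted p = 1.40e-07). Among the genes that rose, PCDHB15 had 11.4, 9.89 and 11.3 CPM in NeuDet-D6 and 19.6, 20.2 and 20.9 CPM in hSCNPC-P5 (edgeR, log2 fold change 0.91, SE 0.0810, adjusted p = 1.79e-14). PCDHB14 had 3.02 ± 0.441 CPM and 5.36 ± 0.891 CPM (edgeR, log2 fold change 0.83, SE 0.168, adjusted p = 2.65e-05). PCDHGA2 rose at a low level (edgeR, log2 fold change 0.83, SE 0.237, adjusted p = 0.00213), a call that was lost without hSCNPC-P5 replicate 1 (log2 fold change 0.56, adjusted p = 0.0716). PCDHA2 was at 10.9 ± 2.02 CPM and 9.92 ± 1.27 CPM, while its share of the alpha level per kilobase was 14.2% ± 0.322 in the first group and 23.7% ± 2.08 in the second. Markers of cell state moved far in this step. The 5 listed genes of neuromesodermal progenitors summed to 1088 to 1164 CPM in NeuDet-D6 and 1.48 to 2.27 CPM in hSCNPC-P5, and the 4 of epithelium to 299.9 to 359.6 and 2.48 to 2.76 CPM. The 7 of neural progenitors summed to 441 to 545 and 3237 to 3332 CPM, and the 7 of neurons to 93.8 to 97.5 and 652 to 668 CPM. The part of these shifts in the changes of the members was not tested.

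Between passages 10 and 20 the shares of members called were near those of all genes, with 7 members that rose (13.5%, against 10.9% of all genes) and 5 that fell (9.62%, against 14.6%), and 40 were not called either way (edgeR), with a median log2 fold change of 0.25 beside 0 over all genes. The members that rose were PCDHB3, PCDHB16, PCDHB12, PCDHB13, PCDHGA6, PCDHGB6 and PCDHGB7. By edgeR, the call of PCDHB13 was lost without hSCNPC-P10 replicate 1 or 2 or any 1 library of hSCNPC-P20 (adjusted p from 0.0725 to 0.182) and that of PCDHGB6 without hSCNPC-P10 replicate 2 or 3 or any 1 library of hSCNPC-P20 (adjusted p from 0.0580 to 0.273). The 5 that fell were PCDHA11, PCDHGA10, PCDHGA11, PCDHGC3 and PCDHGC4. PCDHGA11 went from 16.8, 17.3 and 17.1 CPM to 9.70, 11.2 and 10.6 CPM (edgeR, log2 fold change -0.67, SE 0.117, adjusted p = 6.84e-06). PCDHGA10 went from 5.18 ± 0.164 CPM to 3.02 ± 0.174 CPM (edgeR, log2 fold change -0.76, SE 0.146, adjusted p = 3.95e-05). PCDHGC3 went from 2.38 ± 0.235 CPM to 1.203 ± 0.244 CPM (edgeR, log2 fold change -0.97, SE 0.214, adjusted p = 3.27e-04). PCDHGC4 fell (edgeR, log2 fold change -0.84, SE 0.297, adjusted p = 0.0312), a call lost without hSCNPC-P10 replicate 1 or 3 or hSCNPC-P20 replicate 2 or 3, when its log2 fold change lay between -0.86 and -0.65. The largest rises were those of PCDHB3, with 3.498, 3.66 and 3.42 CPM and 6.12, 6.12 and 6.51 CPM (edgeR, log2 fold change 0.85, SE 0.142, adjusted p = 3.18e-06), of PCDHGA6 (edgeR, log2 fold change 0.78, SE 0.147, adjusted p = 3.31e-05) and of PCDHB16 (edgeR, log2 fold change 0.63, SE 0.126, adjusted p = 6.83e-05). From passage 5 to passage 10, which were not compared by a test, the C-type sum went from 14.3 ± 0.859 CPM to 9.05 ± 0.681 CPM and the beta sum from 157 ± 5.90 CPM to 187 ± 5.54 CPM.

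Between passages 20 and 30 most members fell and a few rose. This comparison was added after the levels had been seen. Of 52 members, 40 fell (76.9%), against 19.2% of all genes, and 5 rose (9.62%), against 19.2% (edgeR). The median log2 fold change was -1.17, beside -0.020 over all genes. The fall took in 20 of the 22 gamma genes, 11 of 14 alpha genes and 9 of 16 beta genes. PCDHGA11, which held the largest gamma share in NeuDet-D6, had 9.70, 11.2 and 10.6 CPM at passage 20 and 1.08, 1.51 and 1.28 CPM at passage 30, an 8.13-fold fall (edgeR, log2 fold change -3.02, SE 0.187, adjusted p = 1.13e-19). PCDHA6 fell 5.76-fold, from 6.45, 6.22 and 5.48 CPM to 0.933, 1.22 and 0.992 CPM (edgeR, log2 fold change -2.53, SE 0.202, adjusted p = 2.02e-15), and PCDHGA10 7.05-fold, from 2.82, 3.13 and 3.10 CPM to 0.430, 0.574 and 0.292 CPM (edgeR, log2 fold change -2.82, SE 0.241, adjusted p = 2.20e-14). In each of these 3 genes every library of passage 30 was below every library of passage 20. All 5 C-type genes fell as well, PCDHGC3 from 1.203 ± 0.244 CPM to 0.336 ± 0.0815 CPM (edgeR, log2 fold change -1.82, SE 0.352, adjusted p = 2.82e-05). The calls of PCDHAC2 (edgeR, log2 fold change -1.61, SE 0.481, adjusted p = 0.00587) and PCDHGC4 (edgeR, log2 fold change -1.20, SE 0.423, adjusted p = 0.0205) were lost without hSCNPC-P30 replicate 3, at adjusted p = 0.0676 and 0.228, that of PCDHGC4 also without hSCNPC-P20 replicate 1. PCDHA13 had a larger fitted fall than PCDHGA10 (edgeR, log2 fold change -2.88, SE 0.987, adjusted p = 0.0168). It rests on 11 counts at passage 20 and 1 at passage 30. Its call was lost without hSCNPC-P20 replicate 2 and without hSCNPC-P30 replicate 2 or 3 (adjusted p = 0.201, 0.0705 and 0.0975).

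The 5 members that rose from passage 20 to passage 30 were PCDHB16, PCDHGB7, PCDHGB4, PCDHA4 and PCDHB5. PCDHB16 had 10.02, 7.98 and 9.25 CPM at passage 20 and 15.0, 13.8 and 14.4 CPM at passage 30 (edgeR, log2 fold change 0.67, SE 0.118, adjusted p = 6.44e-06). PCDHGB7 had 28.5, 26.2 and 24.1 CPM and 36.2, 40.4 and 40.6 CPM (edgeR, log2 fold change 0.57, SE 0.0992, adjusted p = 3.94e-06). PCDHGB4 had 28.0, 26.1 and 24.6 CPM and 37.2, 33.4 and 34.4 CPM (edgeR, log2 fold change 0.42, SE 0.0969, adjusted p = 4.07e-04). For these 3 genes the passages did not overlap. The rises of PCDHA4 (edgeR, log2 fold change 0.32, SE 0.0936, adjusted p = 0.00513) and PCDHB5 (edgeR, log2 fold change 0.15, SE 0.0576, adjusted p = 0.0372) were smaller. Without hSCNPC-P20 replicate 3, and with no filter on low counts, only 3 of the 5 were called, in the first case with PCDHA4 and PCDHB5 being at adjusted p = 0.0673 and 0.154 in edgeR's test. The call of PCDHB5 was also lost without hSCNPC-P20 replicate 1 or 2 or hSCNPC-P30 replicate 1 or 2. PCDHGB5, whose promoter stretch printed above has the same letters as that of PCDHGB4 and which was chosen for this after its values were seen, went the other way, from 5.96, 5.63 and 5.11 CPM to 2.15, 1.29 and 1.58 CPM (edgeR, log2 fold change -1.74, SE 0.200, adjusted p = 2.60e-10). PCDHA2, at 11.7 ± 1.88 CPM and 12.4 ± 0.665 CPM, was not called (edgeR, log2 fold change 0.08, SE 0.123, adjusted p = 0.655).

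In shares of the level per kilobase, PCDHGB4 and PCDHGB7 held 23.4% ± 0.0779 and 20.7% ± 0.433 of the gamma cluster at passage 20, and 39.5% ± 1.96 and 38.9% ± 2.66 at passage 30. The effective number of gamma genes was 11.6 ± 0.0355 at passage 20, 5.09 ± 0.0971 at passage 30 and 5.08 ± 0.191 at passage 40. That of alpha genes was 9.73 ± 0.540, 6.66 ± 0.229 and 6.82 ± 0.0913, with PCDHA2 at 39.8% ± 0.711 of the cluster at passage 30. The beta cluster, already led by PCDHB5, was at 6.28 ± 0.157, 4.68 ± 0.0889 and 4.96 ± 0.145. It had been at 4.74 ± 0.0943 at passage 5 and 5.74 ± 0.0884 at passage 10, so its values at passages 30 and 40 were near that at passage 5. In all 3 clusters the libraries of passage 30 lay below those of passage 20.

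**Figure D4:**
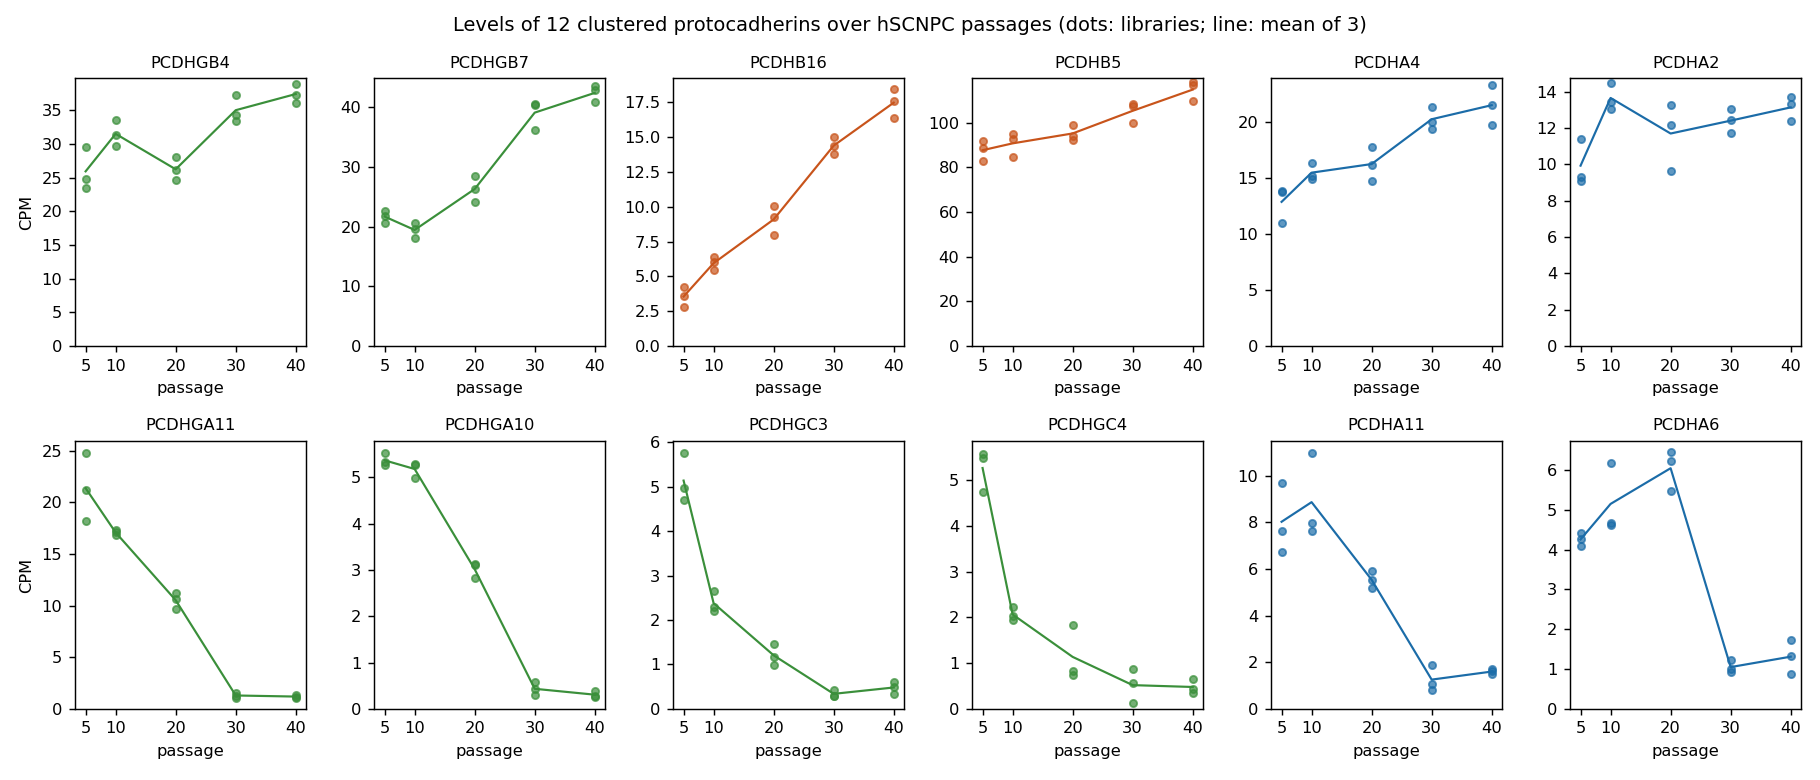
Level in CPM (vertical axes, from 0) of 12 members against hSCNPC passage (horizontal axes), with a dot for each of 3 libraries and a line through the means, blue for alpha, orange for beta and green for gamma. The upper genes hold or rise to passage 40, and the lower genes are near 0 to 2 CPM from passage 30 on.

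Over the whole of passaging, from passage 5 to passage 40, 21 members fell (40.4%, against 24.1% of all genes) and 15 rose (28.8%, against 22.8%) (edgeR). The median log2 fold change was -0.50, beside -0.011 over all genes. Beta genes were mostly among those that rose, with 9 higher and 2 (PCDHB12 and PCDHB15) lower, and gamma genes mostly among those that fell, with 3 higher and 11 lower. By edgeR, the call of PCDHB12 was lost without hSCNPC-P40 replicate 2 or 3 or any 1 library of hSCNPC-P5 (adjusted p from 0.0536 to 0.161). The 3 gamma genes higher were PCDHGA1, PCDHGB4 and PCDHGB7, and the 3 alpha genes higher were PCDHA2, PCDHA3 and PCDHA4, of which PCDHA3 was not called without hSCNPC-P5 replicate 1 or 3 (adjusted p = 0.0516 and 0.0549). PCDHB16 rose 4.95-fold, from 3.61, 4.26 and 2.79 CPM to 17.6, 18.4 and 16.4 CPM (edgeR, log2 fold change 2.31, SE 0.130, adjusted p = 7.15e-22). PCDHB7 went from 0.853 ± 0.286 CPM to 2.58 ± 0.442 CPM (edgeR, log2 fold change 1.60, SE 0.271, adjusted p = 1.60e-06). PCDHGA1 went from 0.887 ± 0.344 CPM to 2.48 ± 0.228 CPM (edgeR, log2 fold change 1.48, SE 0.273, adjusted p = 8.69e-06). PCDHGA11 fell 17.97-fold, from 18.2, 24.7 and 21.2 CPM to 1.32, 1.14 and 1.08 CPM (edgeR, log2 fold change -4.17, SE 0.165, adjusted p = 1.91e-28), and PCDHGA10 17.3-fold (edgeR, log2 fold change -4.11, SE 0.222, adjusted p = 1.29e-22). Of the 5 C-type genes 4 fell, PCDHGC4 by the most, from 4.73, 5.58 and 5.48 CPM to 0.661, 0.336 and 0.433 CPM (edgeR, log2 fold change -3.43, SE 0.306, adjusted p = 1.97e-13). PCDHGC5 was not called (edgeR, log2 fold change -0.51, SE 0.392, adjusted p = 0.304). The cluster sums differed less than these genes, at 59.7 ± 6.13 CPM and 54.9 ± 3.02 CPM for alpha and 128 ± 13.2 CPM and 106 ± 2.17 CPM for gamma, while the beta sum was 157 ± 5.90 CPM and 204 ± 4.21 CPM.

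Markers of cell state moved with the step from passage 20 to passage 30. NES, an intermediate filament gene of neural progenitors, was at 2751 ± 88.2 and 1290 ± 92.9 CPM, PAX6 at 497 ± 19.7 and 243 ± 5.03 CPM and the immature neuron gene DCX at 499 ± 18.01 and 253 ± 14.3 CPM. The 7 listed genes of neural progenitors summed to 3336 to 3548 CPM at passage 20 and 1632 to 1842 CPM at passage 30. The 7 of neurons summed to 1157 to 1179 and 645 to 712 CPM. SP5, a target gene of Wnt signalling, was at 1.22 ± 0.504 CPM at passage 20 and 145 ± 23.3 CPM at passage 30, and was the only 1 of the 5 listed genes of neuromesodermal progenitors at 1 CPM or more in either group. The 7 listed genes of astrocytes and oligodendrocytes summed to 294 to 304 and 470.1 to 516 CPM. Of these, GFAP, AQP4, S100B, ALDH1L1 and SOX10 were below 1 CPM in both groups. Their part in the changes of the protocadherins was not tested.

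**Figure D5:**
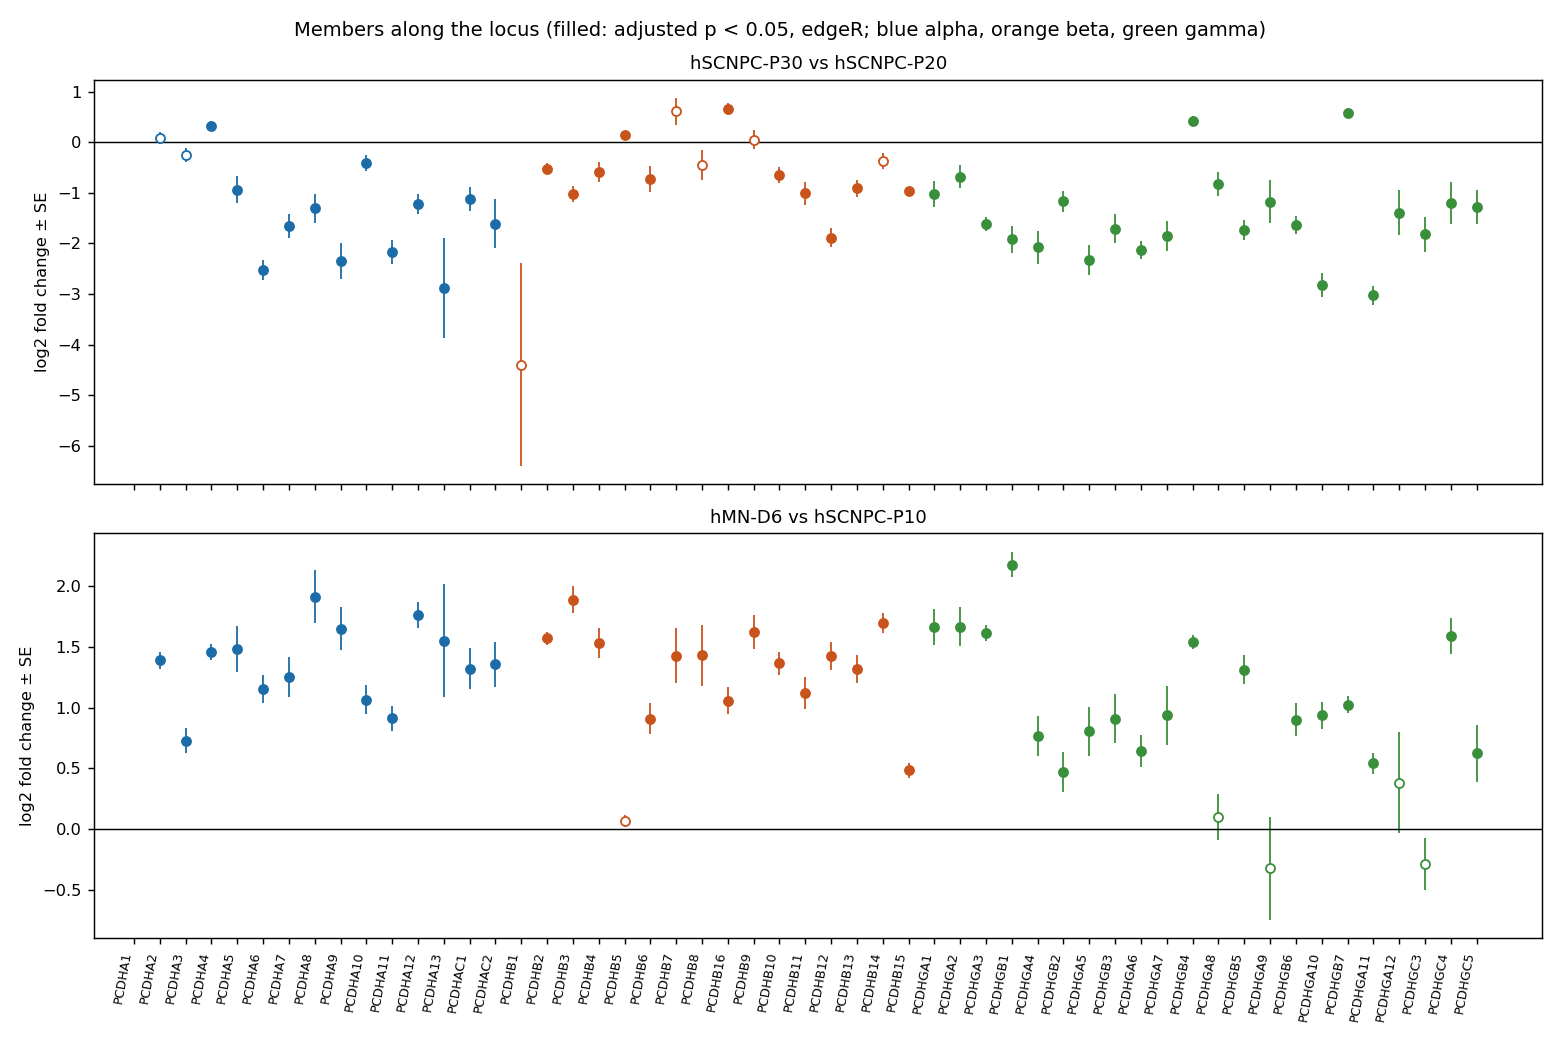
Log2 fold change with its standard error (vertical axes) of each tested member in order along the locus (horizontal axis), for hSCNPC-P30 against hSCNPC-P20 (upper panel) and hMN-D6 against hSCNPC-P10 (lower panel). Filled points have an adjusted p below 0.05, and PCDHB1, which had no count at passage 30, has a fitted value that is no measure of size. In the upper panel 40 genes are called lower and 5 higher, and in the lower panel 46 are called higher and none lower.

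At the start of motor neuron differentiation most members rose. In hMN-D6, whose libraries are in another table than those of hSCNPC-P10, 46 of 51 members tested (90.2%) were higher than in hSCNPC-P10, against 38.5% of the 21175 genes tested, and none was lower, against 36.7% (edgeR). At an unadjusted p under 0.05, 0 were lower, and DESeq2 called 0 lower. The median log2 fold change was 1.31, beside 0.079 over all genes. All 14 alpha genes, 14 of 15 beta genes and 18 of 22 gamma genes were called higher. The 5 members not called were PCDHB5, PCDHGA8, PCDHGA9, PCDHGA12 and PCDHGC3. PCDHGB1, an early gene of the gamma cluster, rose 4.52-fold, from 4.88, 4.33 and 3.99 CPM to 18.5, 21.2 and 21.8 CPM (edgeR, log2 fold change 2.17, SE 0.104, adjusted p = 1.54e-24). PCDHA8 went from 0.932 ± 0.0674 CPM to 3.58 ± 0.386 CPM (edgeR, log2 fold change 1.91, SE 0.218, adjusted p = 4.76e-11). PCDHB3 went from 3.53 ± 0.124 CPM to 13.3 ± 1.18 CPM (edgeR, log2 fold change 1.89, SE 0.115, adjusted p = 1.88e-20). The genes at the highest level per kilobase rose as well. PCDHGB4 had 31.3, 29.6 and 33.6 CPM in hSCNPC-P10 and 86.1, 96.5 and 99.9 CPM in hMN-D6 (edgeR, log2 fold change 1.54, SE 0.0577, adjusted p = 5.96e-28). PCDHGA3 had 19.7, 17.98 and 21.0 CPM and 53.6, 65.8 and 65.3 CPM (edgeR, log2 fold change 1.61, SE 0.0678, adjusted p = 5.21e-24). PCDHB2 had 18.4, 19.3 and 18.4 CPM and 56.5, 58.5 and 55.3 CPM (edgeR, log2 fold change 1.57, SE 0.0542, adjusted p = 1.80e-30). In none of them did the groups overlap. PCDHB5, the leading beta gene, had 94.8, 84.7 and 92.9 CPM and 97.5, 98.5 and 98.1 CPM, all of the second group above the first but by little (edgeR, log2 fold change 0.07, SE 0.0471, adjusted p = 0.183). The C-type gene PCDHGC3 was at 2.38 ± 0.235 CPM and 1.998 ± 0.380 CPM (edgeR, log2 fold change -0.28, SE 0.213, adjusted p = 0.225). The neuronal marker sum moved with this step, from 1200 to 1262 CPM in hSCNPC-P10 to 7988 to 8333 CPM in hMN-D6, and its part was not tested.

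Per kilobase of exclusive exon, the 5 members with the highest group means were PCDHGB4 at 43.9 CPM in hMN-D12, PCDHB5 at 42.9 in NeuDet-D4, PCDHGA3 at 29.4 in hMN-D12, PCDHB2 at 24.7 in hMN-D6 and PCDHA2 at 20.1 in hMN-D24. Next came PCDHGC3 at 18.2 in NeuDet-D2, PCDHGA11 at 16.7 in NeuDet-D3, PCDHGB7 at 15.2 in hSCNPC-P40, PCDHB15 at 10.9 in hMN-D6, PCDHA12 at 10.7 in hMN-D12 and PCDHA11 at 10.2 in hNMP-D1. The places of PCDHGB4 and PCDHB2 in this order depend on how reads on their overlapped bases were assigned, which is not given. PCDHB3 and PCDHA6, which ranked 4 in their clusters by this measure, reached 8.32 in hNMP-D1 and 6.68 in hMN-D24. In hMN-D30, PCDHGB4 and PCDHGA3 held 36.6% ± 0.671 and 25.9% ± 0.417 of the gamma level, PCDHB5 and PCDHB2 28.0% ± 0.604 and 20.7% ± 0.0885 of the beta level, and PCDHA2 and PCDHA12 33.5% ± 0.540 and 15.4% ± 0.991 of the alpha level. The effective numbers were then 7.74 ± 0.0507 for gamma, 9.23 ± 0.144 for beta and 7.997 ± 0.148 for alpha genes, and in hESC they were 17.4 ± 0.179, 8.85 ± 0.354 and 11.7 ± 0.233.

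As the cultures aged from hMN-D6 to hMN-D30, most members came down while 4 alpha genes rose. Lower were 32 of 51 (62.7%, against 30.5% of all genes) and higher 4 (7.84%, against 32.9%), with a median log2 fold change of -0.51 beside 0.023 over all genes (edgeR). The 4 genes that rose were PCDHAC2, PCDHA6, PCDHA4 and PCDHA2. PCDHAC2, a C-type gene known for its part in the spacing of axons of serotonergic neurons, had 2.65, 2.79 and 3.62 CPM in hMN-D6, 5.92, 5.53 and 7.002 CPM in hMN-D12, 8.56, 9.46 and 9.79 CPM in hMN-D18 and 14.9, 14.7 and 15.0 CPM in hMN-D30. Its libraries did not overlap between these 4 days, and it rose 4.95-fold (edgeR, log2 fold change 2.31, SE 0.118, adjusted p = 5.57e-23). PCDHA6 rose 1.43-fold (edgeR, log2 fold change 0.52, SE 0.0934, adjusted p = 4.22e-06). PCDHA4 had 40.3, 46.0 and 43.9 CPM and 60.8, 59.1 and 57.5 CPM (edgeR, log2 fold change 0.45, SE 0.0526, adjusted p = 1.43e-10). PCDHA2 had 33.4, 36.5 and 39.8 CPM and 52.3, 47.2 and 47.0 CPM (edgeR, log2 fold change 0.43, SE 0.0553, adjusted p = 2.99e-09). No beta or gamma gene rose, and 11 of 15 beta, 14 of 22 gamma and 7 of 14 alpha genes fell. PCDHB8 fell from 3.36 ± 0.189 CPM to 1.33 ± 0.618 CPM (edgeR, log2 fold change -1.31, SE 0.236, adjusted p = 5.18e-06). PCDHGA5 went from 4.05 ± 0.213 CPM to 1.76 ± 0.401 CPM (edgeR, log2 fold change -1.19, SE 0.203, adjusted p = 1.49e-06). PCDHGA11 went from 20.6, 27.4 and 28.2 CPM to 12.3, 9.67 and 10.9 CPM (edgeR, log2 fold change -1.21, SE 0.0888, adjusted p = 1.77e-16). The other C-type genes were at 4.02 ± 0.293 CPM (PCDHAC1), 1.66 ± 0.542 CPM (PCDHGC3), 6.29 ± 0.329 CPM (PCDHGC4) and 1.29 ± 0.342 CPM (PCDHGC5) in hMN-D30. Marker sums moved in this step too. From hMN-D6 to hMN-D30 the 7 neuronal genes went from 7988 to 8333 CPM to 6368 to 6383 CPM, and the 7 of neural progenitors from 1257 to 1323 CPM to 396 to 416 CPM. The 7 of astrocytes and oligodendrocytes were at 14.6 to 17.0 and 44.4 to 54.9 CPM, and the 7 of muscle and mesenchyme at 40.3 to 46.3 and 77.8 to 289.7 CPM. Whether these shifts have a part in the levels of the members was not tested.

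From hMN-D30 to hMN-D42 no member rose (0%, against 21.8% of all genes) and 22 fell (43.1%, against 19.9%) (edgeR), with a median log2 fold change of -0.25 beside -0.000491 over all genes. At an unadjusted p under 0.05, 0 were higher, and DESeq2 also called 0 higher. PCDHB3 had 14.4, 12.6 and 14.4 CPM and 9.72, 7.41 and 9.53 CPM (edgeR, log2 fold change -0.63, SE 0.0943, adjusted p = 3.09e-07). PCDHGA4 had 3.68, 2.81 and 2.81 CPM and 1.82, 1.58 and 2.18 CPM (edgeR, log2 fold change -0.72, SE 0.173, adjusted p = 5.57e-04). PCDHA13 (edgeR, log2 fold change -1.44, SE 0.554, adjusted p = 0.0327) and PCDHGA7 (edgeR, log2 fold change -0.70, SE 0.275, adjusted p = 0.0351) are genes at low levels, and both calls were lost with DESeq2 (adjusted p = 0.0993 and 0.101). By edgeR, the call of PCDHA13 was lost without hMN-D30 replicate 2 or 3 or hMN-D42 replicate 1 or 3 (adjusted p from 0.0610 to 0.150) and that of PCDHGA7 without hMN-D30 replicate 2 or 3 or hMN-D42 replicate 1 or 2 (adjusted p from 0.0731 to 0.163). PCDHAC2 was at 16.0 ± 0.767 CPM and was not called (edgeR, log2 fold change 0.11, SE 0.0943, adjusted p = 0.380). Genes of other cell types moved in the same interval. The collagen gene COL1A1 was at 144 ± 112 CPM in hMN-D30 and 673 ± 55.2 CPM in hMN-D42, SOX10 at 11.7 ± 3.57 and 46.3 ± 2.66 CPM, and the 7 listed genes of muscle and mesenchyme summed to 77.8 to 289.7 and 665 to 778 CPM. The 7 neuronal genes summed to 6368 to 6383 CPM in hMN-D30 and 4968 to 5159 CPM in hMN-D42, and the part of these shifts in the result was not tested.

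Lists of genes related to the family were read in the same fits. A list of 11 protocadherins outside the clusters was chosen, of which 10 were tested. From passage 20 to passage 30, when 40 clustered members fell, 3 of these 10 rose and 5 fell, against 19.2% and 19.2% of all genes (median log2 fold change -0.16, beside -0.020 over all genes). In hMN-D6 against hSCNPC-P10, 8 rose and 2 fell, against 38.5% and 36.7% of all genes (median 0.80, beside 0.079). From hMN-D6 to hMN-D30, when 32 clustered members fell, 8 rose and 1 fell, against 32.9% and 30.5% of all genes (median 1.02, beside 0.023). PCDH10 had the largest rise in the last of these steps, with 127 ± 4.37 against 11.01 ± 1.26 CPM (edgeR, log2 fold change 3.52, SE 0.0630, adjusted p = 3.99e-42). PCDH17 was the gene that fell, with 112 ± 0.826 against 129 ± 4.43 CPM (edgeR, log2 fold change -0.19, SE 0.0423, adjusted p = 1.01e-04). PCDH8, a paraxial protocadherin gene, went up and down more than once. In hNMP-D4 against hESC it was at 42.4 ± 10.1 against 0.779 ± 0.242 CPM (edgeR, log2 fold change 5.73, SE 0.199, adjusted p = 1.37e-26). It was at 500.3 ± 18.8 against 1.24 ± 0.417 CPM (edgeR, log2 fold change 8.72, SE 0.158, adjusted p = 1.15e-37) in hSCNPC-P5 against NeuDet-D6. In hSCNPC-P30 against hSCNPC-P20 it was at 64.4 ± 3.77 against 604 ± 35.7 CPM (edgeR, log2 fold change -3.23, SE 0.108, adjusted p = 1.19e-26). PCDH18 and PCDH7 changed most in hMN-D6 against hSCNPC-P10. PCDH18 fell, with 5.52 ± 0.536 against 127 ± 3.15 CPM (edgeR, log2 fold change -4.54, SE 0.0735, adjusted p = 2.08e-44). PCDH7 rose, with 93.3 ± 4.52 against 5.08 ± 1.03 CPM (edgeR, log2 fold change 4.13, SE 0.0748, adjusted p = 2.22e-42).

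Of 19 regulators tied to the locus, among them CTCF, the cohesin subunits and the DNA methyltransferases, 4 rose and 14 fell in hMN-D6 against hSCNPC-P10, where 38.5% of all genes rose and 36.7% fell. Their median log2 fold change was -0.68, beside 0.079 over all genes. REST, a repressor of neuronal genes, fell most, with 5.23 ± 0.605 against 43.5 ± 3.14 CPM (edgeR, log2 fold change -3.08, SE 0.0966, adjusted p = 2.63e-32). MAU2, a cohesin loader subunit, rose most, with 150.2 ± 6.13 against 107 ± 7.43 CPM (edgeR, log2 fold change 0.45, SE 0.0467, adjusted p = 4.15e-12). From passage 20 to passage 30, 6 rose and 5 fell, against 19.2% and 19.2% of all genes (median 0.06, beside -0.020). The largest rise was that of the maintenance methyltransferase gene DNMT1, with 384 ± 19.5 against 275 ± 10.49 CPM (edgeR, log2 fold change 0.48, SE 0.0542, adjusted p = 1.21e-10). DNMT3B, a de novo methyltransferase gene, fell in hNMP-D4 against hESC, with 510.4 ± 65.1 against 1696 ± 89.0 CPM (edgeR, log2 fold change -1.73, SE 0.0770, adjusted p = 6.97e-26). In NeuDet-D6 against hNMP-D4 it fell further, with 147 ± 17.7 against 510.4 ± 65.1 CPM (edgeR, log2 fold change -1.85, SE 0.0781, adjusted p = 1.62e-27).

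Of 10 genes for intracellular partners, which link the family to focal adhesion kinases and the WAVE complex, 3 rose and 4 fell in hMN-D6 against hSCNPC-P10, near the shares of all genes (38.5% and 36.7%). Among them 5 rose and 0 fell from passage 20 to passage 30, against 19.2% and 19.2% of all genes. There CYFIP1 rose most, with 77.5 ± 3.61 against 54.6 ± 2.997 CPM (edgeR, log2 fold change 0.51, SE 0.0913, adjusted p = 8.91e-06). Of 6 genes for the proteases that cut these proteins, 2 rose and 3 fell in hMN-D6 against hSCNPC-P10, beside 38.5% and 36.7% of all genes. NCSTN fell most, with 84.3 ± 2.75 against 189 ± 10.2 CPM (edgeR, log2 fold change -1.21, SE 0.0452, adjusted p = 5.32e-29). Of 13 tested genes that flank the clusters on chromosome 5, 1 was higher and 3 were lower from passage 20 to passage 30, against 19.2% and 19.2% of all genes. DIAPH1 rose, with 135 ± 7.12 against 105 ± 4.26 CPM (edgeR, log2 fold change 0.37, SE 0.0610, adjusted p = 1.79e-06). FCHSD1 fell most, with 6.76 ± 0.563 against 8.85 ± 0.981 CPM (edgeR, log2 fold change -0.39, SE 0.118, adjusted p = 0.00614). In hMN-D6 against hSCNPC-P10, 4 were higher and 7 lower, against 38.5% and 36.7% of all genes. RELL2 rose most, with 20.3 ± 2.36 against 5.50 ± 0.806 CPM (edgeR, log2 fold change 1.85, SE 0.0934, adjusted p = 1.37e-23). HDAC3 fell most, with 46.2 ± 1.61 against 77.8 ± 2.73 CPM (edgeR, log2 fold change -0.79, SE 0.0514, adjusted p = 2.47e-19). Of the 4 pseudogenes inside the clusters, 3 rose and 1, PCDHGB8P, fell in hMN-D6 against hSCNPC-P10, against 38.5% and 36.7% of all genes. It was also the 1 called lower from passage 20 to passage 30, where 19.2% of all genes were lower, with 0.121 ± 0.152 against 0.394 ± 0.163 CPM (edgeR, log2 fold change -1.54, SE 0.592, adjusted p = 0.0336).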

How the data were processed

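Paired-end mRNA libraries were sequenced on an Illumina NovaSeq. Per the labels and the study's methods, the authors cleaned reads in fastp, mapped these with HISAT2 2.1.0 (hg38) and made the deposited read counts per gene with featureCounts 1.5.3. The annotation release and the settings for strand and overlap are not given in the sources used here.

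The raw counts of 48 libraries (hESC to hSCNPC-P40) and of 21 (18 hMN and 3 hSCNPC-P10) were fitted with edgeR 4.0.16 in R 4.3.3 (TMM, filterByExpr, robust quasi-likelihood, a coefficient per group), and p-values were adjusted by Benjamini-Hochberg over the 21597 and 21175 genes tested, with a threshold of 0.05. The scripts were tested on simulated data. CPM were scaled by TMM over all 66 libraries. Exclusive exon lengths came from GENCODE release 44, which may not be the release of the counts. Replicate libraries differed by more than counting noise, with a mean chi-square per gene from 1.89 upwards in all 66 pairs, so none was merged.

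Named were the 5 C-type members, per cluster the 4 members with the highest level per kilobase, per comparison up to 3 called members in each direction with the largest change, per related list the gene with the largest called change in each direction, and members of counts of 5 or fewer. The members and lists were chosen with earlier results of these data known. Alternatives were RLE scaling, no filter, DESeq2 1.42.0, each pair of groups alone, a replicate block and omission of each library.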

Additional observations from a re-analysis of the deposited data

How the results depend on the processing

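Of 220 other values of member counts, 218 stayed within 1.5 times the count reported, and of 591 values for the up to 3 largest called changes in each direction of each comparison 570 kept their direction and their side of the threshold while 21 kept their direction but lost the call. Of all 322 calls of members, 63 were lost under at least 1 alternative, 61 of them without some single library and 19 with DESeq2, leaving aside 6 cases that gave no adjusted p. The exceptions among the counts were both for hSCNPC-P30 against hSCNPC-P20, where the number of members higher went from 5 to 3 with no filter on low counts and, over the omissions of single libraries, lay between 3 and 5. Among 210 values of the log2 ratios of cluster sums, 3 moved by more than the spread between libraries, each with RLE scaling in place of TMM. In hMN-D6 against hSCNPC-P10 the alpha ratio went from 1.33 to 1.47 and the beta ratio from 0.83 to 0.96, and in hMN-D30 against hMN-D6 the beta ratio went from -0.59 to -0.56. The cause was not tested. Computed from counts rather than per kilobase, the effective number moved by more than that spread for 17 of 18 values, but was still lower at passage 30 than at passage 20 in all 3 clusters. The 2 comparisons added after the levels were seen, hSCNPC-P30 against hSCNPC-P20 and NeuDet-D1 against hNMP-D4, are descriptions of steps picked for their size and no independent tests. Genes of few counts, such as PCDHA13, PCDHB1, PCDHGA7 and PCDHGC5, limit what depth allows, and intervals of these data cover counting error and the spread between libraries only.

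The replicate number is shared between groups in the labels, but nothing says that it marks a shared culture. In none of the 10 comparisons did the deviations of all 3 same-numbered pairs correlate above 0.1, and over all pairs the correlations lay between -0.10 and 0.16. With the replicate number as a block, 46 members were higher in hMN-D6 against hSCNPC-P10 and 40 lower in hSCNPC-P30 against hSCNPC-P20, as without it, 31 in place of 32 fell from hMN-D6 to hMN-D30 and 20 in place of 22 from hMN-D30 to hMN-D42, and 16 in place of 15 rose from hNMP-D4 to NeuDet-D1. The block moved no other count.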

Other observations

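The gene with the largest share of the gamma level per kilobase changed along the protocol. PCDHGB5 led in hESC and on all 4 days of the hNMP stage, with 12.8% ± 0.541 in hESC and 16.7% ± 0.159 in hNMP-D4. The C-type gene PCDHGC3 led on NeuDet-D1 and NeuDet-D2, and PCDHGA11 from NeuDet-D3 to NeuDet-D6, where it held 19.1% ± 1.51. PCDHGB4 led from passage 5 to passage 30 and in all 6 hMN groups, with 24.5% ± 0.842 at passage 5 and 37.0% ± 0.756 in hMN-D42. At passage 40 PCDHGB7 and PCDHGB4 were level, with 39.4% ± 1.74 and 39.4% ± 0.951. These shares are a description, and no test was made of the order of genes within a group.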
